A study of Homo sapiens with 5 samples.

Results

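The 10 genes described here are markers of proliferating cells and parts of the machinery that builds the spindle and divides the cytoplasm. They are MKI67, TOP2A, FOXM1, TPX2, NUSAP1, HMMR, PRC1, RACGAP1, ECT2 and ANLN. They were picked by symbol with no threshold on a value, but with earlier results of these data known. All 10 were found among the 26364 listed names and passed the filter for testing. Their mRNA was measured by mRNA-seq in cultured IMR-90 cells, a line of normal human fibroblasts from lung, 24 hr after siRNA had been transfected. A control siRNA was used for the 2 Ctr-KD libraries. The 3 NSD2-KD libraries came from cells given siRNA against NSD2, a histone H3K36 methyltransferase. Each of its siRNAs, NSD2-1, NSD2-2 and NSD2-3, had 1 library, so siRNA and replicate cannot be told apart. All cells of both groups were of this 1 line and went through transfection, and the labels describe the cultures of both groups as growing.

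Cells in G1 hold little mRNA of these genes, which accumulates through S and G2 phase and is highest around mitosis. Much of this timing is known to come from promoter elements bound by the MuvB complex, which works with B-MYB and FOXM1 in dividing cells and with E2F4 and a pocket protein, as the DREAM complex, in resting ones. Late in mitosis, microtubules bundled between the separating chromosomes (the central spindle) position a ring of actin and myosin, the ring cuts a furrow, and ESCRT proteins sever the last bridge between the daughter cells.

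All values below are normalized counts, the reads on a gene divided by a size factor for the library. The libraries held 2473691 to 2845063 reads on genes, and a count of 3 reads corresponded to 2.76 to 3.28 normalized counts. NSD2, listed under its older symbol WHSC1, stood at 463 and 443 in Ctr-KD cells and at 90.2, 81.9 and 87.9 with NSD2-1, NSD2-2 and NSD2-3. It was left at 19.9%, 18.1% and 19.4% of the Ctr-KD level, with counting intervals (95%, exact) that overlapped and together ran from 14.1% to 24.5%. All 10 fibroblast markers examined, such as COL1A1, had reads in every library, with a median log2 difference of 0.01, while epithelial and endothelial markers summed to at most 6.55 normalized counts in any library. Leukocyte markers summed to 62.5 to 104 normalized counts, of which CD68, a lysosomal protein gene, made up 60.5 to 103, while PTPRC and CD3E were at 0; the part of these reads in the results was not tested.

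The mean level of each of the 10 mRNAs was lower in NSD2-KD than in Ctr-KD cells. In 9 of the 10, every NSD2-KD library lay below both Ctr-KD libraries, which held for 13.9% of the 11313 tested genes. The exception was RACGAP1. The median log2 difference over the 10 was -0.86, with a range from -2.05 for MKI67 to -0.52 for RACGAP1, beside a median of -0.01 over all tested genes. Without the NSD2-2 library the median over the 10 was -0.57. In bulk RNA, fewer dividing cells and less of these mRNAs in each dividing cell cannot be told apart.

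None of the 10 passed an adjusted p of 0.05 in limma, the main test, which called 0.053% of tested genes lower. At an unadjusted p under 0.05 in limma, 9 of the 10 were lower, against 4.99% of tested genes. On the recovered reads, DESeq2 called 1 of the 10 lower, TOP2A, where it called 0.395% of 10386 genes lower. edgeR called 0 of the 10 lower and 0.0972% of tested genes. An exact permutation of 2 against 3 libraries cannot give a two-sided p below 0.1 for a single gene.

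**Figure D1:**
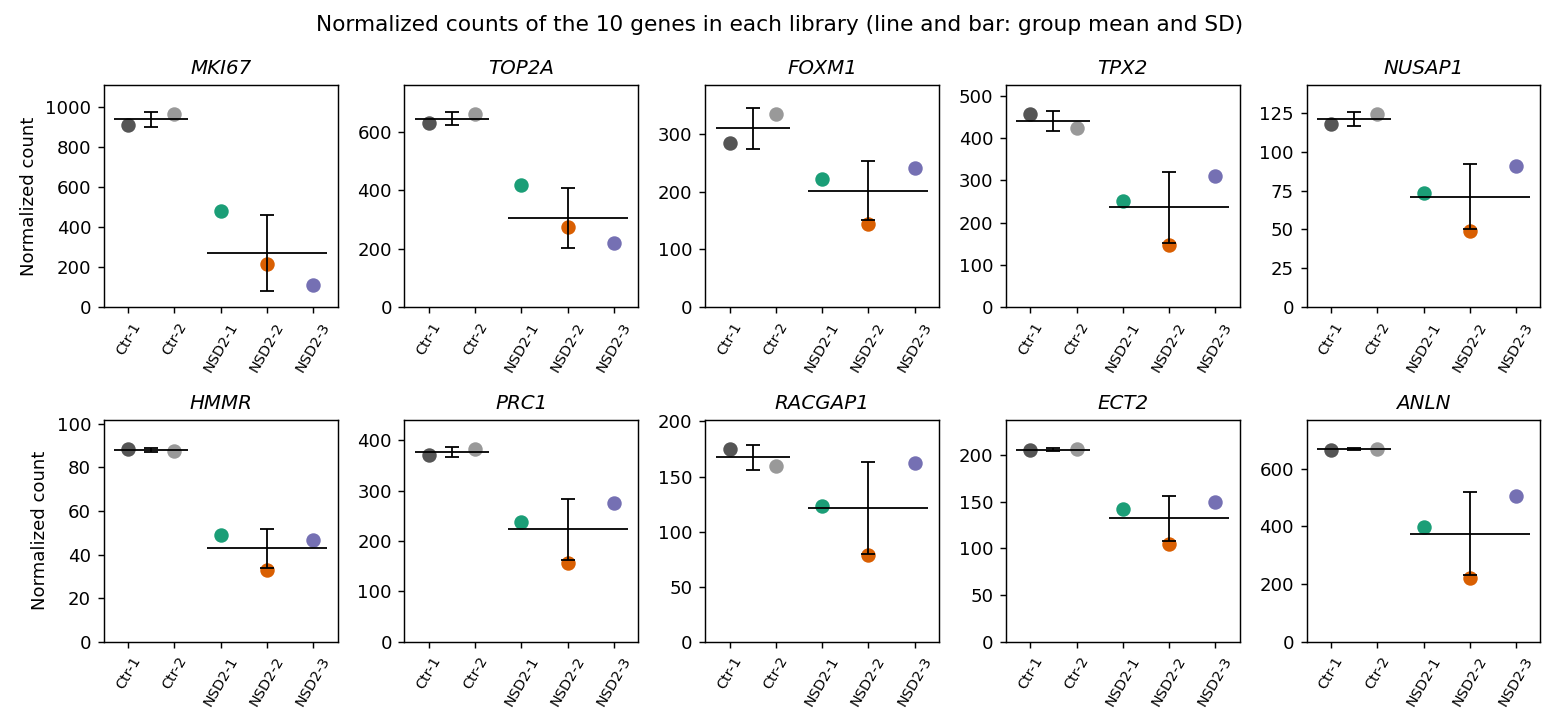
Normalized counts (vertical axis, from 0, a scale of its own for each gene) of the 10 genes in the 2 Ctr-KD and 3 NSD2-KD libraries; each point is a library, and lines and bars are group means and SD. The Ctr-KD libraries lie close together, the NSD2-KD libraries spread widely, and RACGAP1 is the gene whose groups overlap.

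The promoters of these genes share letters that the choice of genes did not use. The RefSeq table of promoter windows on GRCh38.p14, from 250 bases before to 50 bases after the annotated start, held 7 of the 10 genes, ECT2 with 2 starts. FOXM1, RACGAP1 and TPX2 were not matched. Printed here are the 120 bases that end at the start, in the direction of transcription, for the genes with the largest log2 differences among those matched and for PRC1, which has a single copy of each element. Capitals mark TTTGAA (or its reverse complement TTCAAA), the letters of the cell cycle genes homology region (CHR) that MuvB binds, and CCAAT (or ATTGG), the box that NF-Y binds. Where the elements overlap or touch, their capitals run together.
MKI67: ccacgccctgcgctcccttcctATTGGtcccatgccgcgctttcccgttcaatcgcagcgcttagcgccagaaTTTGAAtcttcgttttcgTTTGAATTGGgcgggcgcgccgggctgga
TOP2A: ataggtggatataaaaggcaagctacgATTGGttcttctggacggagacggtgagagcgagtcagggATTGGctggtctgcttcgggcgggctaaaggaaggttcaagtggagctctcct
HMMR: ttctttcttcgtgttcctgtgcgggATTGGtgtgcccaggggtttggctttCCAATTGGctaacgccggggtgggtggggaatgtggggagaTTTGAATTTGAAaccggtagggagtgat
PRC1: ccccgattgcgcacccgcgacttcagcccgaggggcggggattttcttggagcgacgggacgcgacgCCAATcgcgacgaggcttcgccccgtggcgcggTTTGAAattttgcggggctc
ANLN: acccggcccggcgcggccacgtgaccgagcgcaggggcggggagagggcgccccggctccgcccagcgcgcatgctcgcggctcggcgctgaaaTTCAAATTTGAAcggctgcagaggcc
They lie on GRCh38.p14 at chr10:128126424-128126543 (minus strand) for MKI67, chr17:40417897-40418016 (minus strand) for TOP2A, chr5:163460512-163460631 (plus strand) for HMMR, chr15:90994536-90994655 (minus strand) for PRC1 and chr7:36389742-36389861 (plus strand) for ANLN.

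CHR letters were present on either strand in the windows of all 7 genes, and in windows of 13.7% of 8645 tested genes. CCAAT letters were present in 6 of 7, all but ANLN, against 43.4% of tested genes, and 5 of 7 had more than 1 copy, against 16.3%. Both elements occurred together in a window of 6 of 7 genes and of 5.62% of tested genes. Of E2F-like letters, TTCCCGC was found in 0 of 7 genes (13.0% of tested genes) and TTGGCGC in 2 of 7, NUSAP1 and ECT2 (6.17%). In HMMR the CHR letters stood in tandem 28 and 22 bases before the start, in MKI67 47 and 29 bases before it, in PRC1 20 bases before it, and in ANLN as a palindrome of both strands 26 and 20 bases before it. In TOP2A they stood farther away, 194 and 151 bases before the start and outside the stretch shown, which has CCAAT boxes instead. A match of letters describes the sequence and is not a measurement of binding.

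**Figure D2:**
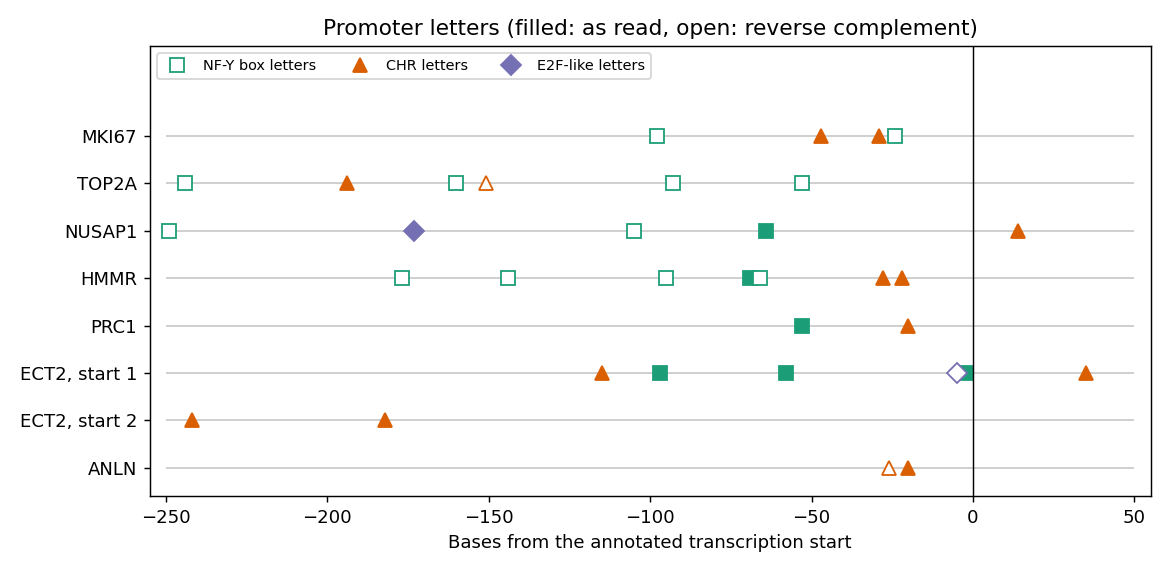
Positions of CHR, NF-Y box and E2F-like letters (symbols; filled as read, open as reverse complement) in bases from the annotated start, for the 8 promoter windows of 7 genes. CHR letters of MKI67, HMMR, PRC1 and ANLN cluster within 47 bases before the start, while those of TOP2A and the downstream ECT2 start are over 100 bases away. Those of NUSAP1 lie 14 bases after the start, and those of the upstream ECT2 start 115 bases before and 35 bases after it.

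MKI67 encodes Ki-67, the antigen by which pathologists score dividing cells and which coats mitotic chromosomes and keeps them apart. The gene lies at chr10:129894923-129924687 of GRCh37 (minus strand), with 15 exons in its representative transcript. Its normalized counts were 912 and 967 in Ctr-KD cells and 481, 217 and 110 with NSD2-1, NSD2-2 and NSD2-3. The groups did not overlap, and the NSD2-KD libraries differed 4.36-fold among themselves. The log2 difference was -2.05 (SE 0.49, 95% interval -3.17 to -0.93), and the adjusted p was 0.259 in limma, 0.224 in edgeR and 0.646 in DESeq2. Of the tested genes, 3 had a lower log2 difference: NSD2 itself, DTL and FAM111B, of which DTL and FAM111B are named here after their values were seen.

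TOP2A encodes the topoisomerase that untangles sister chromatids before they separate, and it lies at chr17:38544777-38574148 of GRCh37 (minus strand). Its normalized counts were 629 and 662 in Ctr-KD cells and 419, 274 and 221 with NSD2-1, NSD2-2 and NSD2-3. Every NSD2-KD library was below both controls. The log2 difference was -1.13 (SE 0.23, 95% interval -1.67 to -0.60), with an adjusted p of 0.201 in limma, 0.155 in edgeR and 0.00868 in DESeq2. TOP2B, the isoform that is also made in resting cells, stood at 500 and 487 against 414, 364 and 405, a log2 difference of -0.33 (SE 0.11, adjusted p = 0.389 in limma). TOP1, which relaxes DNA ahead of forks and polymerases, stood at 413 and 377 against 259, 436 and 471, so its groups overlapped (log2 difference -0.07, adjusted p = 0.956 in limma).

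FOXM1 encodes the forkhead factor that joins MuvB at promoters of G2 and mitotic genes. It lies at chr12:2966846-2986340 of GRCh37 (minus strand). Its normalized counts were 284 and 334 in Ctr-KD cells and 221, 143 and 241 with NSD2-1, NSD2-2 and NSD2-3. The groups did not overlap, but the highest NSD2-KD library was close to the lower control. The log2 difference was -0.64 (SE 0.22, 95% interval -1.14 to -0.14, adjusted p = 0.404 in limma), among the smaller ones of the 10.

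The spindle genes were TPX2, NUSAP1 and HMMR. TPX2 (chr20:30327074-30389608, plus strand), which activates Aurora A and nucleates microtubules near chromosomes, stood at 457 and 424 in Ctr-KD cells and at 250, 146 and 310 in NSD2-KD cells, in the order of siRNAs above. NUSAP1 (chr15:41612992-41673248, plus strand), which bundles microtubules around chromosomes, stood at 118 and 124 against 73.6, 49.2 and 90.8. HMMR (chr5:162887209-162918947, plus strand), which encodes a hyaluronan receptor that also helps TPX2 at spindle poles, stood at 88.6 and 87.4 against 48.8, 32.8 and 46.9. In all 3 genes every NSD2-KD library was below both controls and the NSD2-2 library was the lowest. The log2 difference was -0.97 for TPX2 (SE 0.27, adjusted p = 0.315 in limma), -0.80 for NUSAP1 (SE 0.25, adjusted p = 0.354) and -1.04 for HMMR (SE 0.22, adjusted p = 0.201). Their 95% intervals, -1.59 to -0.34, -1.37 to -0.24 and -1.54 to -0.55, overlapped widely.

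The central spindle genes were PRC1 and RACGAP1. PRC1 (chr15:91509270-91538859, minus strand), the crosslinker of antiparallel microtubules, stood at 371 and 384 in Ctr-KD cells and at 237, 157 and 275 in NSD2-KD cells. RACGAP1 (chr12:50370706-50426919, minus strand), which forms centralspindlin with the kinesin KIF23, stood at 175 and 159 against 123, 78.6 and 162. Its NSD2-3 library thus lay between the controls. The log2 difference was -0.79 for PRC1 (SE 0.22, 95% interval -1.29 to -0.30, adjusted p = 0.295 in limma) and -0.52 for RACGAP1 (SE 0.27, 95% interval -1.14 to 0.10, adjusted p = 0.619). The interval of RACGAP1 was the only one of the 10 to include 0.

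The furrow genes were ECT2 and ANLN. ECT2 (chr3:172468472-172539264, plus strand) is the exchange factor that RACGAP1 recruits to switch on RhoA at the equator, and it stood at 205 and 207 in Ctr-KD cells and at 143, 105 and 149 in NSD2-KD cells. ANLN (chr7:36429430-36493400, plus strand) encodes anillin, the scaffold that ties RhoA, actin, myosin and septins into the ring, and it stood at 665 and 670 against 398, 221 and 507. Both genes had all NSD2-KD libraries below both controls. ECT2 differed by -0.65 on the log2 scale (SE 0.17, 95% interval -1.05 to -0.25, adjusted p = 0.282 in limma) and ANLN by -0.91 (SE 0.29, 95% interval -1.58 to -0.24, adjusted p = 0.385). All coordinates of genes here are on GRCh37, the hg19 assembly of the files.

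Exons of FOXM1, NUSAP1, HMMR, PRC1, RACGAP1 and ANLN overlap exons of another annotated gene, such as ITFG2, OIP5, HMMR-AS1, PRC1-AS1, AQP6 and MATCAP2 on the opposite strand. The library kit did not mark the strand, so reads in these overlaps cannot be assigned. On the same strand, exons of NUSAP1 overlap OIP5-AS1 and a gene without a symbol, and exons of PRC1 a gene without a symbol. Reads in those overlaps could not be told apart by strand in any kit. MKI67, TOP2A, TPX2 and ECT2 have no such overlap.

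**Figure D3:**
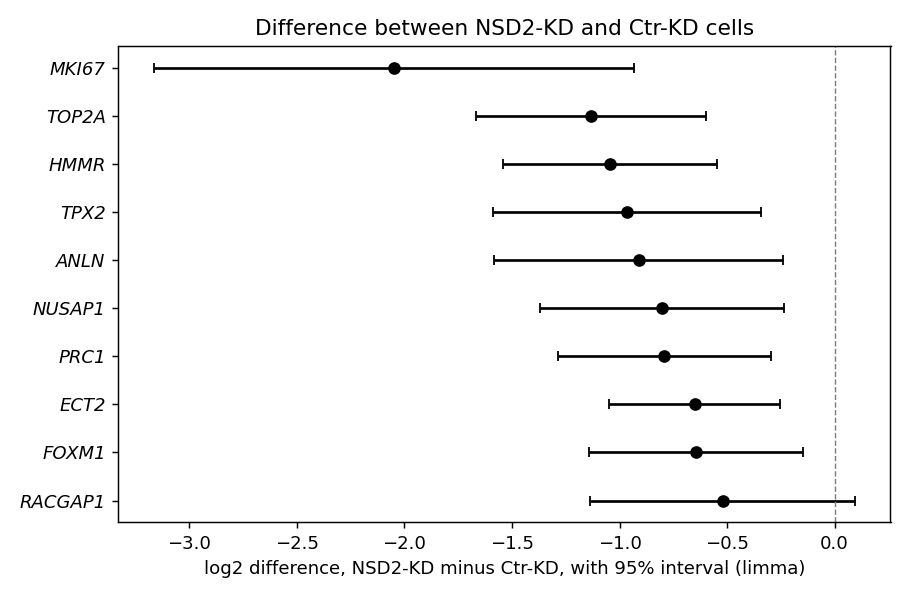
Log2 difference between NSD2-KD and Ctr-KD cells (horizontal axis) for each of the 10 genes, with points for the limma estimate and bars for its 95% interval. MKI67 lies farthest from 0 at -2.05 with the widest interval, and RACGAP1, at -0.52, has the only interval that reaches past 0.

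Although the 3 siRNAs left NSD2 at 18.1% to 19.9%, the 10 genes differed by siRNA. Each siRNA had 1 library, so these ratios were not tested, and their 95% exact intervals cover counting error only. The median level left over the 10 genes was 61.9% of pooled Ctr-KD with NSD2-1 (range 51.3% to 73.5%), 41.1% with NSD2-2 (23.2% to 51.0%) and 72.8% with NSD2-3 (11.8% to 96.6%). Of the 10 genes, 8 were lowest with NSD2-2 and 0 with NSD2-1. In NUSAP1, HMMR, RACGAP1 and ECT2, however, the counting intervals of NSD2-2 and NSD2-1 overlapped. Among all tested genes whose NSD2-KD libraries were all below both controls, 47.4% were lowest with NSD2-2, 26.5% with NSD2-1 and 26.1% with NSD2-3.

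MKI67 and TOP2A were the 2 genes lowest with NSD2-3. MKI67 was left at 51.3% with NSD2-1 (95% interval 46.5% to 56.5%), 23.2% with NSD2-2 (19.9% to 26.8%) and 11.8% with NSD2-3 (9.64% to 14.2%). These intervals did not overlap, and in the NSD2-3 library 0 of the tested genes had a lower log2 ratio to the Ctr-KD mean than MKI67. Of 7586 genes with a mean of at least 50, 14 (0.185%) had a larger ratio between their highest and lowest NSD2-KD library. TOP2A was left at 65.0% (58.3% to 72.3%), 42.5% (37% to 48.7%) and 34.2% (29.6% to 39.5%), where the intervals of NSD2-2 and NSD2-3 overlapped. The other 8 genes were lower with NSD2-2, at a median of 41.1%, than with NSD2-3, at a median of 74.0%, though in HMMR and ECT2 the counting intervals of these siRNAs overlapped. ANLN was left at 59.7% (53.5% to 66.6%), 33.1% (28.4% to 38.4%) and 75.9% (68.5% to 84.1%), again without overlap. RACGAP1 with NSD2-3 was left at 96.6% (79.8% to 117%), so a decrease was not detectable at this depth.

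**Figure D4:**
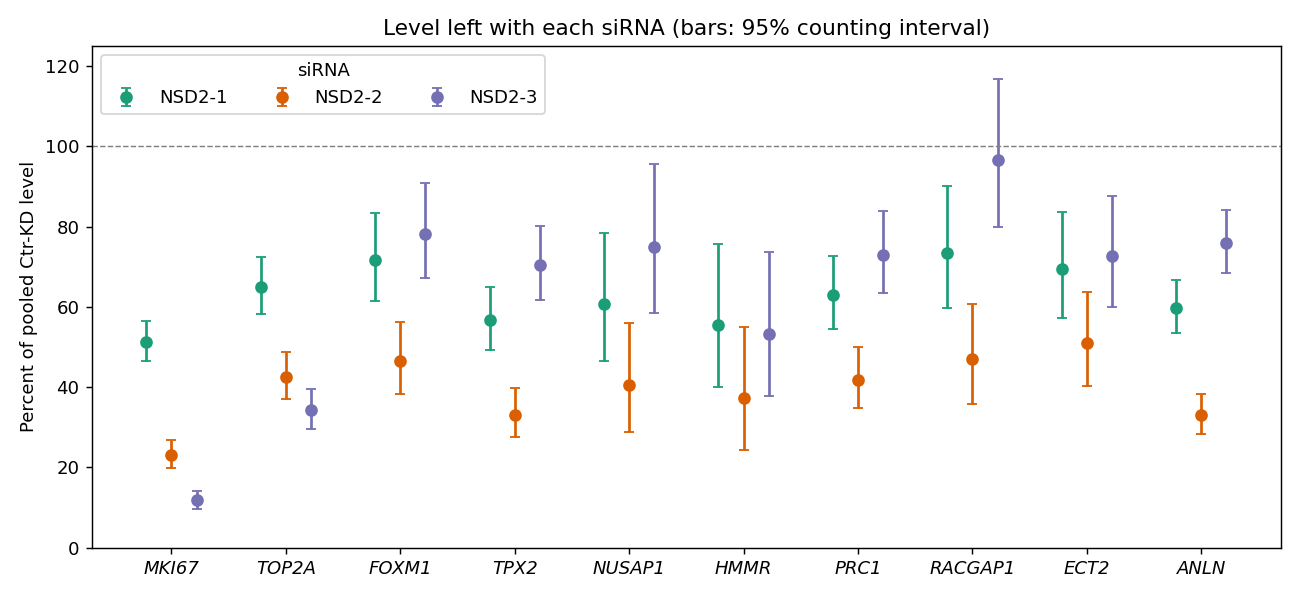
Level of each gene with each siRNA as a percent of the pooled Ctr-KD level (vertical axis, from 0), with points for the libraries and bars for 95% exact counting intervals; the dashed line is 100%. MKI67 and TOP2A are lowest with NSD2-3, at 11.8% and 34.2%, while the other 8 genes are lowest with NSD2-2.

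Per kilobase of the representative transcript, the level in Ctr-KD cells was 141 ± 0.715 normalized counts per kb for ANLN (SD, n = 2), then 127 ± 6.80 for TPX2, 123 ± 3.03 for PRC1, 113 ± 4.07 for TOP2A, 87.0 ± 10.0 for FOXM1, 73.9 ± 3.08 for MKI67, 53.9 ± 3.60 for RACGAP1, 53.6 ± 1.99 for NUSAP1, 49.8 ± 0.336 for ECT2 and 29.2 ± 0.270 for HMMR. The values of TPX2 and PRC1 overlapped, as did those of RACGAP1 and NUSAP1, so these neighbours are not ordered. By means of the NSD2-KD libraries, ANLN was at 79.3 ± 30.5 per kb (SD, n = 3), PRC1 at 72.7 ± 19.6 and TPX2 at 67.9 ± 23.9, and their values overlapped, so they are not ordered. With NSD2-2, ANLN was at 46.6 per kb, below the 51.2 of PRC1 and the 48.1 of TOP2A. HMMR was at 14.2 ± 2.90 per kb and MKI67 at 21.2 ± 15.0, again overlapping. MKI67 moved from place 6 to place 9 by group means, but its values overlapped those of RACGAP1, ECT2 and NUSAP1, so this place is not settled. With NSD2-1 MKI67 was at 37.8 per kb, above the 34.5 of ECT2. With NSD2-3 its 8.67 per kb was below the 15.5 of HMMR. MKI67 has the longest transcript of the 10, with 12716 bases, and before division by length it ranked first in Ctr-KD cells.

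Genes that work with the 10 in the same structures were then read from lists written from general knowledge, with earlier results of these data known. Of 13 partners in the central spindle and midbody, 13 had every NSD2-KD library below both controls, 13 were lower at an unadjusted p under 0.05 and 0 were called in limma, with a median log2 difference of -0.90. Over all tested genes these shares were 13.9% and 4.99%, against which the counts of each list that follows are to be read. All 13 were lowest with NSD2-2, beside 47.4% of tested genes whose NSD2-KD libraries were all below both controls. Among tested genes of the lists below, NSD2-2 was lowest in 24 of 30 for spindle assembly, 20 of 23 FOXM1 targets and 13 of 14 S phase markers. It was lowest in 10 of 18 genes of DREAM, MuvB, E2F and NF-Y, 5 of 18 contractile ring genes and 3 of 18 ESCRT genes. Over all tested genes NSD2-2 was lowest in 24.7%, the share to set beside these counts by list. Of the 13, KIF14, a midbody kinesin, had the lowest log2 difference, at 103 and 103 against 50.6, 13.1 and 64.4 (log2 difference -1.52). INCENP, the scaffold of the Aurora B complex, had the highest, at 151 and 167 against 114, 80.8 and 101 (log2 difference -0.69).

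The actin and myosin side of cytokinesis was read from contractile ring genes. Of 23 such genes listed, 18 were tested, and 2 of them had every NSD2-KD library below both controls, a share close to the 13.9% of all tested genes. Their median log2 difference was 0.05, with 1 lower at an unadjusted p under 0.05 and 0 called in limma. The lowest was DIAPH3, a formin that builds the actin of the ring, at 152 and 167 against 98.5, 59.0 and 75.2 (log2 difference -1.06), and the highest was RHOB, at 490 and 473 against 395, 1024 and 600 (log2 difference 0.37). The septins SEPT2, SEPT6, SEPT7, SEPT9 and SEPT11 were not analysed here, since 28 listed names look like dates, the form that spreadsheet programs give to septin symbols.

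Of 19 ESCRT genes of abscission, 18 were tested, with a median log2 difference of 0.11. In 1 of them every NSD2-KD library was below both controls and in 4 above both, an unadjusted p under 0.05 was reached by 1 lower gene and 1 higher gene, and 0 were called in limma. The counts of lower genes were near or under the shares of all tested genes, 13.9% and 4.99%. The ends of their range were CHMP6 (log2 difference -0.43) and ULK3, a kinase of the abscission checkpoint (log2 difference 0.68). CHMP4C was listed at 0 in every library.

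Of 31 spindle assembly genes, 30 were tested, with a median log2 difference of -0.65. All NSD2-KD libraries were below both controls in 23, 18 were lower at an unadjusted p under 0.05, and 0 were called in limma. The lowest was ASPM, which focuses spindle poles, at 283 and 301 against 110, 67.7 and 143 (log2 difference -1.51). The highest was CLTC, the clathrin heavy chain, which serves endocytosis as well as the spindle, at 1633 and 1646 against 2609, 2249 and 2366 (log2 difference 0.55).

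The regulators and targets were read in the same way. Of 23 known FOXM1 targets, 23 had a negative log2 difference, 20 had every NSD2-KD library below both controls, 19 were lower at an unadjusted p under 0.05 and 0 were called in limma. Their median was -0.93, beside -0.64 for FOXM1 itself, with a range from CCNF, cyclin F (-1.39), to CKS1B, a CDK subunit (-0.43). Of 18 tested genes of DREAM, MuvB, E2F and NF-Y, 7 had every NSD2-KD library below both controls, 5 were lower at an unadjusted p under 0.05 and 0 were called in limma, with a median of -0.29, where 13.9% and 4.99% of all tested genes met these criteria. The pocket protein gene RBL1 was the lowest of them, at 57.2 and 75.1 against 27.6, 21.8 and 24.4 (log2 difference -1.38), and LIN37, a MuvB subunit, the highest (log2 difference 0.26).

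Markers of S phase label proliferating cells at an earlier step. Of 14, all 14 had every NSD2-KD library below both controls (13.9% of tested genes) and 14 were lower at an unadjusted p under 0.05 (4.99%), with a median log2 difference of -1.09, but 1 was called in limma. This was RRM2, the regulated subunit of ribonucleotide reductase, which fell from 389 and 412 to 122, 128 and 124 (log2 difference -1.67, adjusted p = 0.00228 in limma). The others had adjusted p in limma from 0.0615 (MCM5) to 0.50 (TYMS). The NSD2-KD libraries of RRM2 differed by less than 1.05-fold, unlike the 4.36-fold of MKI67. CHR letters were present in windows of 0 of 12 S phase markers and of 10 of 12 central spindle and midbody genes. They were present in 12 of 20 FOXM1 targets, 15 of 29 spindle assembly genes and 7 of 17 DREAM, MuvB, E2F and NF-Y genes. For contractile ring genes the count was 2 of 16 and for ESCRT genes 1 of 15, beside 13.7% of tested genes.

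**Figure D5:**
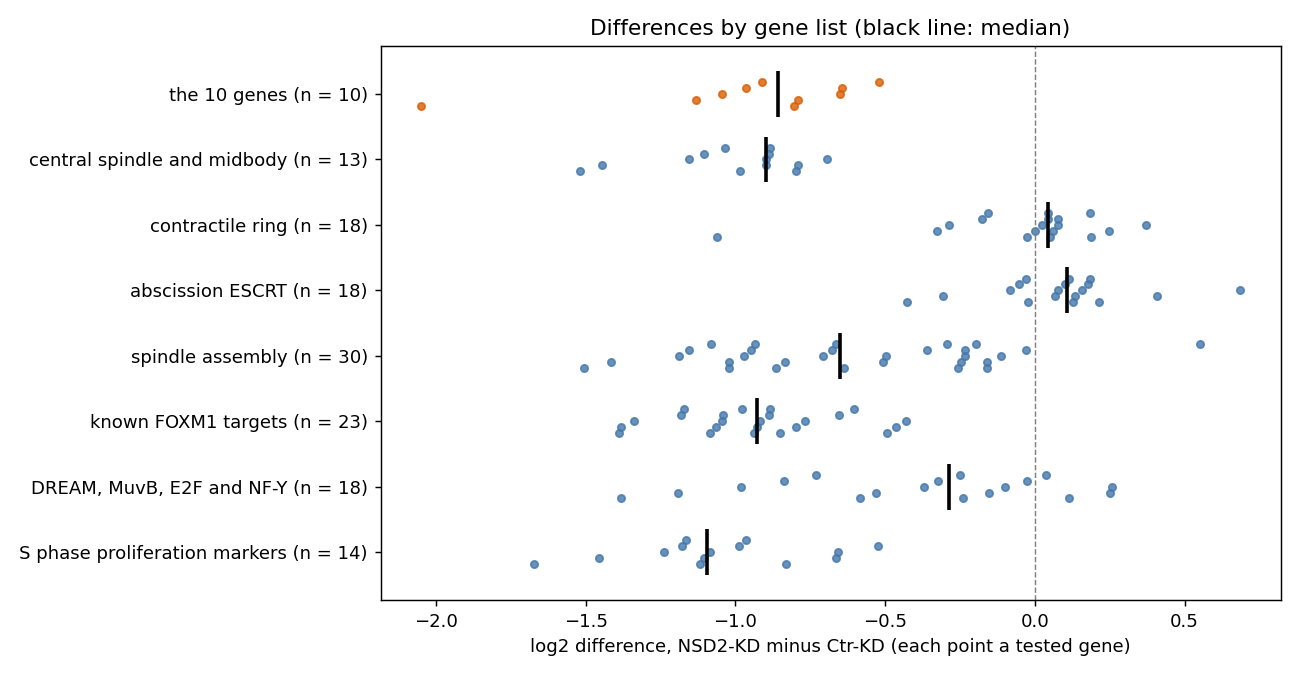
Log2 difference between NSD2-KD and Ctr-KD cells (horizontal axis) for the tested genes of each list; each point is a gene, each black line a median, and the dashed line is 0. The 10 genes, central spindle and midbody genes, FOXM1 targets and S phase markers lie left of 0, while contractile ring and ESCRT genes scatter around it, with medians of 0.05 and 0.11.

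The mean profile of the 10 genes over the 5 libraries, in log2 values centred on each gene's mean, was 0.56 and 0.58 in Ctr-KD cells and -0.11, -0.79 and -0.24 with NSD2-1, NSD2-2 and NSD2-3. Of the 10, HMMR was nearest to this profile, at a root mean square distance of 0.06, and MKI67 farthest, at 0.85. Among the other genes with a mean of at least 50, the nearest 5 were LIG1 (distance 0.05), CENPE (0.07), RFWD3 (0.07), SGOL2 (0.07) and ARHGAP11A (0.08). LIG1 encodes the ligase that joins Okazaki fragments, CENPE a kinetochore kinesin, RFWD3 a ubiquitin ligase of the DNA damage response and SGOL2 a shugoshin that guards centromeric cohesion. The likeness rests on 5 libraries and was not tested.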

How the data were processed

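Poly(A) RNA of 2 Ctr-KD and 3 NSD2-KD libraries had been sequenced on a MiSeq. The authors aligned trimmed reads with HISAT2 (hg19), used SAMtools to retain those mapping to 1 place, and obtained counts per gene with featureCounts (strand setting not given in the sources used here). The deposited signal is the count per gene divided by a DESeq2 size factor for each library, a scale on which a change shared by all genes is lost. A second deposited table holds the authors' DESeq2 fold changes and p-values and was not used. Every value was a whole multiple of what 1 read is worth (100% within 0.01), so reads were recovered for count tests.

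The main test was limma 3.58.1 with its mean-variance trend, applied to log2 of the normalized count plus a pseudocount of 1, over 11313 genes with a mean of at least 10, without covariates, two-sided, Benjamini-Hochberg adjusted over all tested genes, threshold 0.05. Fold changes are on this scale and understate those of low genes. edgeR 4.0.16, DESeq2 1.42.0 and the settings named in the closing section were alternatives. Fits were run on simulated data with planted changes larger than those of most of the 10 genes. That run does not show how often smaller changes are called. The 10 genes and all lists were chosen with earlier results of these data known. Of the lists, 1 is not reported here, though counts over all lists include it. Named genes were the 10, those called in each list or otherwise its ends, TOP2B, TOP1, NSD2 and the 5 nearest profiles. The Ctr-KD libraries, given as biological replicates, differed little beyond counting noise (chi-square per degree of freedom 1.05, against 3.87 to 5.29 in other pairs).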

Additional observations from a re-analysis of the deposited data

How the results depend on the processing

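All 10 genes kept a negative log2 difference in each of 18 alternatives, but not all of these could change it. Robust estimation, no trend, no filter and a minimum mean of 50 leave the estimate of the main test as it is. The replicate block gives the same estimates as leaving out NSD2-3. Differences ran between -2.59 and -1.53 for MKI67 and between -0.76 and -0.24 for RACGAP1. The median over the 10, -0.86, ranged from -0.98 to -0.57. It was -0.57 without the NSD2-2 library and -0.98 without NSD2-3 or with the replicate block. The number of the 10 with every NSD2-KD library below both controls was 9 to 10 with each library left out in turn, an alternative chosen after seeing the data. With a library left out, 20.6% to 23.7% of tested genes met this criterion, against 13.9% with all libraries, so it was easier to meet. Calls depended on the test. Of the 10 genes, 0 were called by limma, 1 by DESeq2 (TOP2A) and 0 to 2 when a library was left out, the highest being MKI67 and TOP2A without the NSD2-1 library. Over the whole table, 6 genes were called lower by limma, 0 with the Ctr-KD libraries averaged as 1 sample, 41 by DESeq2, 11 by edgeR, 11 at an adjusted p under 0.1, 1 without the trend, 73 without a filter on low values, and 0 to 22 with a library left out (0 without either Ctr-KD library, 10 without NSD2-1, 22 without NSD2-3). Of the genes of the pathway lists, 1 was called lower by limma, 0 with Ctr-KD averaged, 19 by DESeq2, 3 by edgeR, 3 at an adjusted p under 0.1, 2 with robust estimation, 0 without the trend, 2 by limma-voom, and 0 to 12 with a library left out (0 without either Ctr-KD library, 12 without NSD2-3). The causes of these shifts were not tested.

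Replicate numbers of NSD2-KD libraries are siRNA numbers. Deviations of libraries with the same number from their group means had an r across genes of -0.02 and -0.03. The Ctr-KD libraries differed little beyond counting noise, so these values cannot show whether the numbers pair the libraries. A replicate block, which leaves the unpaired NSD2-3 library without weight in the comparison, called 5 of the 10 genes lower (MKI67, TOP2A, TPX2, PRC1 and ANLN), 84 genes over the whole table and 36 genes of the lists. At 2473691 to 2845063 reads, genes with few reads were limited by counting error. No screen for outlying samples was run, since groups of 2 and 3 libraries are too small for it.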
